A study of Mus musculus with 6 samples.

Results

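Polyamines are small positively charged amines that every cell makes from ornithine. Ornithine decarboxylase, encoded by Odc1, makes putrescine, and spermidine synthase (Srm) and spermine synthase (Sms) then add aminopropyl groups that S-adenosylmethionine decarboxylase (Amd1) supplies. Spermine oxidase (Smox) turns spermine back into spermidine and releases hydrogen peroxide and an aldehyde, and spermidine/spermine N1-acetyltransferase (Sat1) tags polyamines for export or oxidation. Antizymes (Oaz1 and Oaz2) are the pathway's brake, since they bind ornithine decarboxylase and hand it to the proteasome, and antizyme inhibitor (Azin1) is a catalytically inactive relative of ornithine decarboxylase that sequesters antizymes. In macrophages, polyamines are known for their part in alternative activation and in the hypusine modification of the translation factor eIF5A.

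The 9 genes Odc1, Oaz1, Oaz2, Azin1, Amd1, Srm, Sms, Sat1 and Smox were taken by symbol from 17951 genes listed in at least 1 of 6 libraries, and all 9 were listed in every library. The libraries came from macrophages grown from the bone marrow of C57BL/6 mice aged 8 weeks, with medium conditioned by L929 fibroblasts as the supply of growth factor. All 6 had been given Pam3CSK4, a lipopeptide ligand of Toll-like receptors, for 6 h, and in 3 of them dopamine (DA) had been added 2 h earlier. The comparison is Pam3CSK4 plus DA against Pam3CSK4 alone, so no value below is an unstimulated baseline. The labels do not say whether replicates came from separate mice or cultures, and the p-values therefore measure the spread between these libraries, which may be technical. No batch is given in the labels.

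Depth was nearly equal, from 21337932 to 21518425 expected counts per library. All 7 macrophage markers were at an FPKM (a fragment count scaled for transcript length and library size) of at least 1 in every library. Of these 7, 5 were called lower, 1 higher and Cd68 was not called. Of all tested genes 31.8% were called lower and 32.6% higher, shares that also stand beside the marker counts below. Adgre1, which encodes the surface protein F4/80, fell from 620.4 ± 26.5 to 276.4 ± 23.1 FPKM (SD, n = 3), and Mertk was 1.90-fold lower. The falls of Lyz2 (1.37-fold), Itgam (1.24-fold) and Csf1r (1.19-fold) were smaller, and the Fc receptor gene Fcgr1 was 2.69-fold higher. The summed FPKM of the 7 macrophage markers, mostly Lyz2, was 18629 to 19184 with Pam3CSK4 and 14271 to 15420 with DA. The summed FPKM of 6 neutrophil markers was 313.3 to 409.9 with Pam3CSK4 and 1353 to 1398 with DA. Of these 6, S100a8 was called higher (169.6 ± 32.2 to 1155 ± 31.8 FPKM; SD, n = 3) and Camp lower. S100a9 (177.1 ± 16.4 to 201.6 ± 7.34 FPKM; SD, n = 3), Mpo and Elane were not called. The surface gene Ly6g had at most 0.52 FPKM in any library. The 4 stromal markers, mainly collagens, summed to 153.8 to 161.0 and 145.1 to 156.0, and 2 of them were called lower, Col1a2 by 1.14-fold and Pdgfra by 1.70-fold. The 5 dendritic cell, 4 B cell and 4 erythroid markers each summed to at most 1.18 in any library, of which Xcr1, a dendritic cell gene, was called higher (0.310 ± 0.0436 to 0.727 ± 0.171 FPKM; SD, n = 3), with Pax5 and Hbb-bs not listed in any library, and the 4 T and NK cell markers, of which Cd4 made up nearly all, to 5.04 to 6.43. The part of any of these in the results below was not tested.

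With DA, 5 of the 9 genes had another level. Smox rose 3.29-fold, Odc1 rose 1.54-fold, and both antizyme genes rose, Oaz2 by 1.44-fold and Oaz1 by 1.34-fold, while Sms was 1.96-fold lower. Azin1, Amd1, Srm and Sat1 did not pass the test. By edgeR's quasi-likelihood test on the counts, with Benjamini-Hochberg adjustment over 12390 tested genes and a threshold of 0.05, 4 of the 9 were therefore higher and 1 was lower. Among all tested genes 64.4% were called, 32.6% higher and 31.8% lower, so the share of members called, 5 of 9 or 55.6%, lies near that background and says nothing particular about the pathway as a whole. The median log2 fold change was -0.03 over the 9 members and 0.02 over all tested genes, and the median size of a change was 0.42 and 0.38. Only Smox changed by at least 2-fold, as 14.8% of all tested genes did and 7.34% did upward. With limma on log2(FPKM + 1) the same 5 members passed, beside 69.3% of 10222 genes. In these bulk libraries fewer cells of a type and less RNA per cell cannot be told apart.

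**Figure D1:**
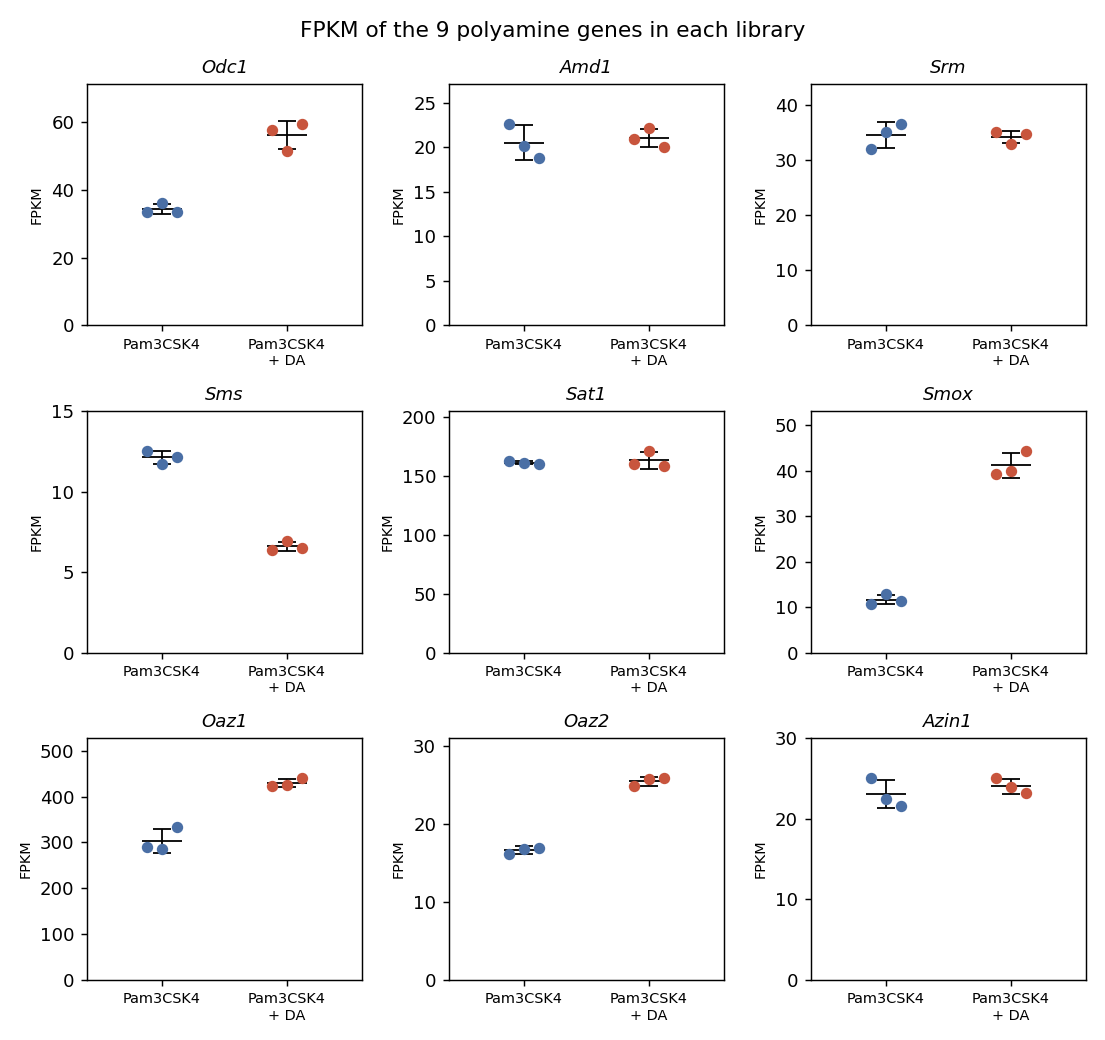
FPKM (vertical axis, from 0) of each of the 9 genes in the 3 Pam3CSK4 libraries (blue) and the 3 Pam3CSK4 plus DA libraries (red); points are libraries in replicate order, and black bars are the mean and SD. The groups do not overlap for Odc1, Oaz1, Oaz2, Sms and Smox, and they overlap for Azin1, Amd1, Srm and Sat1.

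Both antizyme messages carry a short site at which the ribosome must slip forward by a base to make antizyme, a slip that polyamines promote. The site is shown because it sets the antizyme genes apart from the other members: their transcript level is only part of what decides how much protein is made, and this part is not measured here. The letters below come from GENCODE M21 transcripts on GRCm38 (Oaz1 on chromosome 10, Oaz2 on chromosome 9), with the stop codon of the initial frame in capitals.
Oaz1: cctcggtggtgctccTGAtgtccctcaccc
Oaz2: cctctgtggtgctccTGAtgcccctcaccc
Of these 30 bases, 28 are the same in both genes. In the initial frame the codon after tcc is the stop, and with the T of the stop skipped the next stop follows after 160 codons in Oaz1 and 158 in Oaz2, counted from tcc. GENCODE draws 3 of 6 coding models of Oaz1 and 2 of 4 of Oaz2 with that base left out across this stretch.

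The promoters of 7 of the 9 members were matched by symbol in RefSeq's table for GRCm38.p6, in 8 windows that run from 250 bases before a gene's start to 50 after it. Each was searched on both strands for CACGTG, the E-box bound by MYC and MAX, for TGACNNNGC, the core of the antioxidant response element, and for TGACGTCA, the cAMP response element. These letters occur in 7.15%, 12.4% and 1.79% of all 32851 windows in the table. Among the 7 members searched, CACGTG was found in 1 window, of Sms, TGACNNNGC in those of Smox and Oaz1, and TGACGTCA in none. Srm and Azin1 had no window and were not searched. A match describes letters and not a bound site. The stretches before the start are printed for the members with a match, in capitals, and for the gene of the entry enzyme, trimmed where GENCODE M21 places a transcribed untranslated part of another isoform.
Smox: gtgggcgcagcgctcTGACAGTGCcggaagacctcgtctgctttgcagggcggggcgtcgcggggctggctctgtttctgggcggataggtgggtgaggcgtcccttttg
Oaz1: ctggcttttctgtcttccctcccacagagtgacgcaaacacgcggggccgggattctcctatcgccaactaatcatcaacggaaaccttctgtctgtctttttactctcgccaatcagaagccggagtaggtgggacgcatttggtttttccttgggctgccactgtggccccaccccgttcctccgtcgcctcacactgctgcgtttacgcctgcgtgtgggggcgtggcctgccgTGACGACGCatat
Sms: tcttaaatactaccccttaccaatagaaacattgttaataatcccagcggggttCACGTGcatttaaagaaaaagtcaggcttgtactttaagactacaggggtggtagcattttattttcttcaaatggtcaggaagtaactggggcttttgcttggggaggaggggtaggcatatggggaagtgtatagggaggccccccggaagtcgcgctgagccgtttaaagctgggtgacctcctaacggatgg
Odc1: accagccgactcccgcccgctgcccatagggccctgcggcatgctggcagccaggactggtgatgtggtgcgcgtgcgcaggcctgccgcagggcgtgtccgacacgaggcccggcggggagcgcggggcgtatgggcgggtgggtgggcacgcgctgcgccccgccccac
They lie at chr2:131491654-131491763 on the plus strand for Smox, chr10:80826406-80826655 on the plus strand for Oaz1, chrX:157492288-157492537 on the minus strand for Sms and chr12:17544623-17544793 on the plus strand for Odc1. Counted from RefSeq's start, the match in Smox begins 193 bases before it, that in Sms 196 bases before it and that in Oaz1 13 bases before it. For Smox the RefSeq start (131491862) lies 366 bases inside the GENCODE span given below, so the match there is upstream of 1 start and within the span that other isoforms take up. For Odc1 the RefSeq start lies 79 bases inside the GENCODE span, and for Oaz1 and this window of Sms the starts coincide. For Oaz2, whose window is not printed, the RefSeq start lies 8547 bases inside that span. Sms has another window at a further start, without any of the searched letters. GC content over the printed stretches was 67.3% in Smox, 58.0% in Oaz1, 47.2% in Sms and 77.2% in Odc1.

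The gene of the entry enzyme rose with DA. Odc1 (gene ID 18263, chr12:17544794-17551505, plus strand, GRCm38) had an FPKM of 33.5, 36.1 and 33.5 in the Pam3CSK4 libraries and 57.8, 51.4 and 59.6 in the DA libraries. Every DA library lay above every Pam3CSK4 library, and the lowest of them was DA replicate 2. In counts scaled for library size with TMM factors (CPM), the means were 90.8 ± 3.78 and 139.8 ± 11.7 (SD, n = 3). The log2 fold change was 0.62, with an SE of 0.066 (edgeR adjusted p = 1.38e-06). Of all tested genes, 15.3% had a higher log2 fold change.

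Amd1 (gene ID 11702, chr10:40287458-40302186, minus strand), whose product commits S-adenosylmethionine to the pathway, had an FPKM of 22.6, 20.1 and 18.8 with Pam3CSK4 and 20.9, 22.1 and 20.1 with DA. The groups overlapped, and the log2 fold change of -0.05 has a 95% interval from -0.20 to 0.09 (edgeR adjusted p = 0.518). A change as large as that of Odc1 lies outside this interval. Its near-identical relative Amd2, which may share reads with it, held at most 14.1 expected counts in any library against at least 1297 for Amd1.

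Of the enzymes that add aminopropyl groups, Sms fell and Srm was not called. Srm (gene ID 20810, chr4:148591503-148594993, plus strand), which makes spermidine, had an FPKM of 32.1, 35.1 and 36.6 with Pam3CSK4 and 35.0, 32.9 and 34.7 with DA, and these ranges overlap. Its log2 fold change was -0.10 (95% interval -0.25 to 0.04, edgeR adjusted p = 0.191), and it was called lower without Pam3CSK4 replicate 1, where Srm was lowest (-0.16, adjusted p = 0.0392). Sms (gene ID 20603, chrX:157443855-157492287, minus strand), which makes spermine, had an FPKM of 12.5, 11.7 and 12.2 with Pam3CSK4 and 6.40, 6.92 and 6.49 with DA. No DA library came near the Pam3CSK4 libraries. In CPM the means of Sms were 42.7 ± 1.39 and 21.8 ± 0.771 (SD, n = 3). Its log2 fold change was -0.97, with an SE of 0.064 (edgeR adjusted p = 8.83e-09), and 7.96% of all tested genes had a lower one.

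Of the enzymes of polyamine breakdown, Smox rose and Sat1 was not called. Smox (gene ID 228608, chr2:131491496-131525922, plus strand), the spermine oxidase gene, had an FPKM of 10.8, 12.8 and 11.4 with Pam3CSK4 and 39.3, 39.9 and 44.3 with DA. Its expected counts rose from between 491 and 528 per library to between 1728 and 1956, with no overlap. In CPM the means were 24.8 ± 1.06 and 81.7 ± 6.22 (SD, n = 3). The log2 fold change was 1.72, with an SE of 0.070 (95% interval 1.57 to 1.87, edgeR adjusted p = 5.24e-11). Only 2.40% of tested genes had a higher value. The deposited transcript length of Smox differed between libraries, and ranged from 1931 bases in Pam3CSK4 replicate 2 to 2138 in Pam3CSK4 replicate 1, which moves FPKM but not the counts.

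Sat1 (gene ID 20229, chrX:155213132-155216449, minus strand), the inducible acetyltransferase, came after Oaz1 in abundance. Its FPKM was 162.3, 161.0 and 159.8 with Pam3CSK4 and 159.9, 170.7 and 157.8 with DA. The groups overlap in FPKM, while in CPM every DA library lay below the Pam3CSK4 libraries, from 178.9 to 190.5 against 192.2 to 193.6. The log2 fold change of -0.08 had a 95% interval from -0.18 to 0.03 (edgeR adjusted p = 0.206). Sat1 is the only member for which the separation of the groups depended on the unit. In CPM the groups did not overlap for 6 of 9 members, and for 68.7% of all tested genes.

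Both antizyme genes rose. Oaz1 (gene ID 18245, chr10:80826656-80829290, plus strand), the most abundant member, had an FPKM of 289.8, 284.4 and 332.5 with Pam3CSK4 and 424.0, 426.2 and 439.9 with DA. The groups were apart, and Pam3CSK4 replicate 3 was the highest of its group. In CPM the means of Oaz1 were 335.7 ± 32.3 and 449.0 ± 12.3 (SD, n = 3), and the log2 fold change was 0.42 with an SE of 0.064 (edgeR adjusted p = 5.42e-05). Oaz2 (gene ID 18247, chr9:65668001-65690300, plus strand), a less abundant antizyme, had an FPKM of 16.1, 16.8 and 16.9 with Pam3CSK4 and 24.8, 25.7 and 25.8 with DA. Its libraries were tightly grouped on both sides, with means of 31.9 ± 1.13 and 45.9 ± 1.14 in CPM (SD, n = 3). The log2 fold change was 0.53, with an SE of 0.061 (edgeR adjusted p = 3.29e-06).

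Oaz1 has a near-identical copy that may share reads with it. The processed pseudogene Oaz1-ps (chr17:17345456-17346140, minus strand) was listed with 1698, 2263 and 1427 expected counts in the Pam3CSK4 libraries and 1623, 2454 and 2233 in the DA libraries. It was lowest in Pam3CSK4 replicate 3, where Oaz1 was highest, and it was not called (log2 fold change 0.13, edgeR adjusted p = 0.446). The sum of Oaz1 and Oaz1-ps, an alternative chosen after seeing the data, was 8346, 8803 and 9075 counts with Pam3CSK4 and 11372, 12269 and 12430 with DA. The summed counts gave a log2 fold change of 0.37 (SE 0.055, edgeR adjusted p = 4.80e-05). Expected counts were whole numbers in all libraries for Oaz2, Azin1, Srm, Sat1 and Smox, and not for Odc1, Oaz1, Amd1 and Sms, whose values may include reads divided among similar sequences.

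Azin1 (gene ID 54375, chr15:38487427-38519266, minus strand), the antizyme inhibitor, was not called. Its FPKM was 25.01, 22.5 and 21.6 with Pam3CSK4 and 25.02, 23.95 and 23.2 with DA, and the groups overlap. The log2 fold change was -0.03, with a 95% interval from -0.16 to 0.10 (edgeR adjusted p = 0.712). The point estimates of Oaz1, Oaz2 and Odc1 all lie above that interval.

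**Figure D2:**
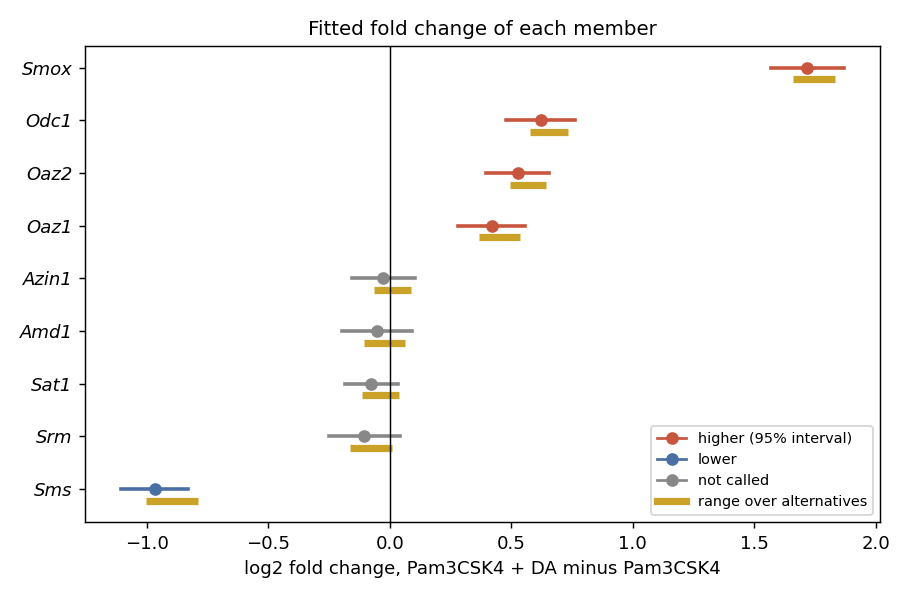
Log2 fold change (horizontal axis, Pam3CSK4 plus DA minus Pam3CSK4) of each member, with its 95% interval as a thin line, and the range over the main value and all alternatives as a thick yellow bar beneath it; red is called higher, blue lower and grey not called. Smox (1.72), Odc1 (0.62), Oaz2 (0.53) and Oaz1 (0.42) lie to the right of 0 with both bars, Sms (-0.97) to the left, and the other members straddle or touch 0.

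Levels per length can be compared between the genes on the FPKM scale. With Pam3CSK4 the order of mean FPKM was Oaz1 (302.2), Sat1 (161.0), Srm (34.6), Odc1 (34.4), Azin1 (23.0), Amd1 (20.5), Oaz2 (16.6), Sms (12.1) and Smox (11.7). Srm and Odc1, Azin1 and Amd1, and Sms and Smox did not differ beyond the spread of their libraries. With DA the order became Oaz1 (430.1), Sat1 (162.8), Odc1 (56.3), Smox (41.2), Srm (34.2), Oaz2 (25.4), Azin1 (24.1), Amd1 (21.03) and Sms (6.60), and only Oaz2 and Azin1 overlapped as neighbours. Smox thus went from the lowest place to the fourth, above Srm, while Sms took the last place alone.

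**Figure D3:**
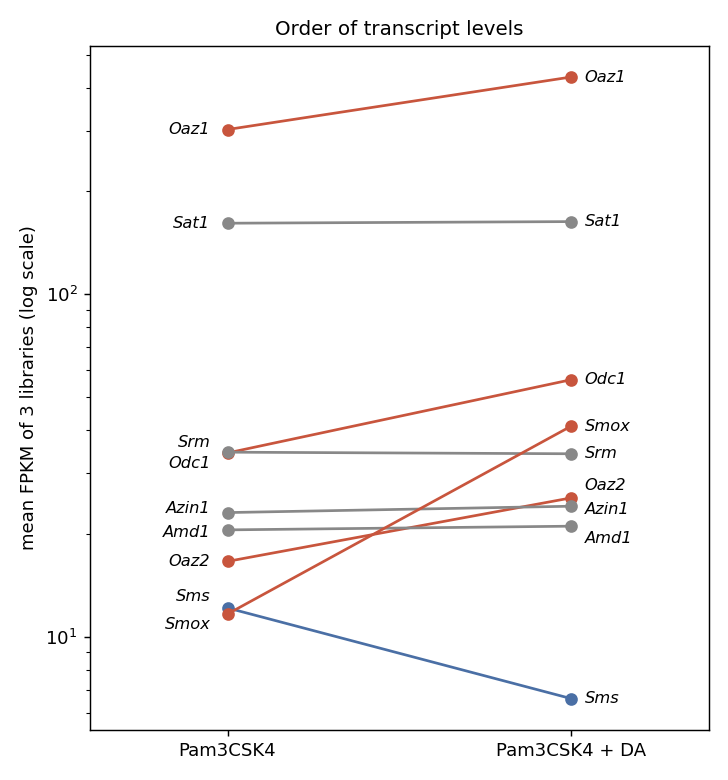
Mean FPKM of 3 libraries (vertical axis, log scale) of each member with Pam3CSK4 (left) and Pam3CSK4 plus DA (right); red lines are genes called higher, blue lower and grey not called. The lines of Smox and Sms start together at 11.7 and 12.1 and end at 41.2 and 6.60.

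Ratios between members within a library do not depend on how libraries are scaled to each other, and 6 were compared. Smox to Sat1, the oxidase against the acetyltransferase, was 0.066, 0.079 and 0.072 with Pam3CSK4 and 0.246, 0.234 and 0.281 with DA, 3.50-fold higher. Sms to Srm, the spermine against the spermidine synthase, was 0.391, 0.334 and 0.333 with Pam3CSK4 and 0.183, 0.210 and 0.187 with DA, 1.82-fold lower. In both ratios the groups were wide apart compared with the spread within them.

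Sat1 to Odc1, breakdown against entry, went from 4.69 ± 0.205 to 2.91 ± 0.358 (SD, n = 3), and Amd1 to Odc1 from 0.597 ± 0.0673 to 0.376 ± 0.0484 (SD, n = 3). Azin1 to Oaz1, the inhibitor against its main antizyme, went from 0.0768 ± 0.0108 to 0.0560 ± 0.00316 (SD, n = 3). The groups did not overlap in these 3 ratios. Oaz2 to Oaz1 overlapped between the groups (0.0551 ± 0.00410 and 0.0591 ± 0.00100; SD, n = 3), so a different rise of the antizyme genes was not detected on this scale. That overlap depended on how reads were assigned between Oaz1 and Oaz1-ps. With expected counts summed over both, an alternative added after seeing the data, Oaz2 to Oaz1 was 0.0763, 0.0759 and 0.0742 with Pam3CSK4 and 0.0866, 0.0834 and 0.0832 with DA, without overlap and 1.12-fold higher (exact permutation p = 0.1). With 3 libraries against 3 the two-sided exact permutation test over 20 assignments cannot give a p below 0.1. This exact test gave p = 0.1 for each of the 5 ratios without overlap, 0.12 after Benjamini-Hochberg adjustment over the 6, and p = 0.3 for Oaz2 to Oaz1, so no ratio can pass a threshold of 0.05.

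**Figure D4:**
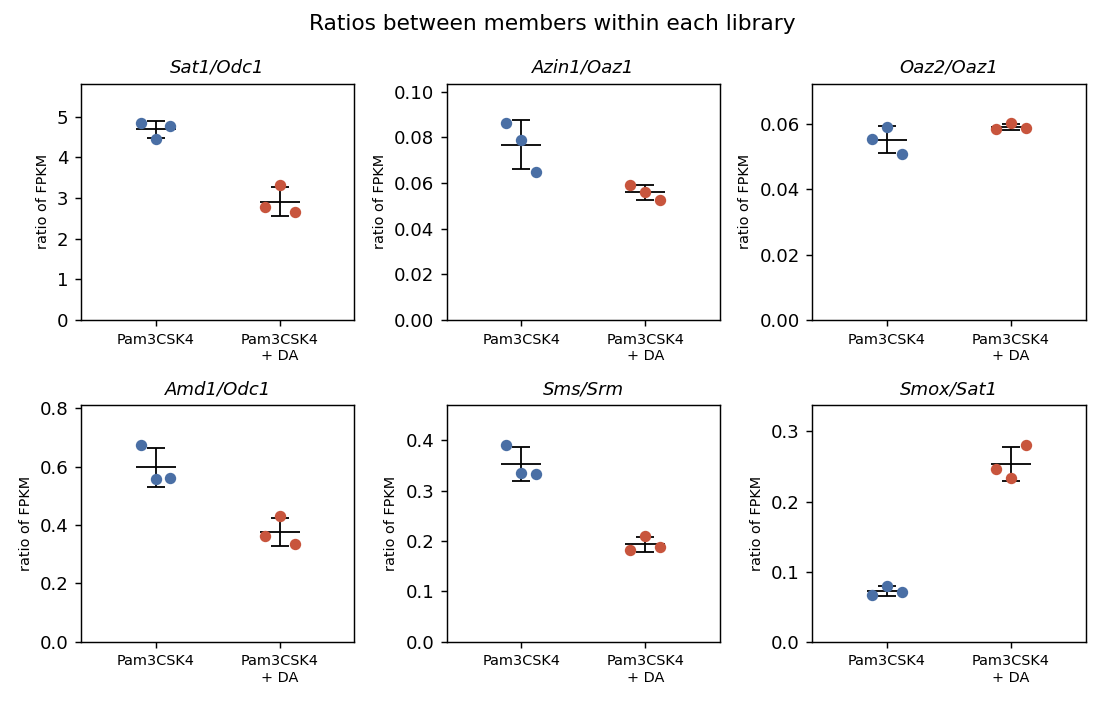
Ratio of the FPKM values of 2 members (vertical axes, from 0) in each of the 3 Pam3CSK4 (blue) and 3 Pam3CSK4 plus DA (red) libraries, with mean and SD in black. Smox/Sat1 is higher with DA in all 3 libraries, Sms/Srm, Sat1/Odc1, Amd1/Odc1 and Azin1/Oaz1 are lower, and Oaz2/Oaz1 overlaps.

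Genes around the pathway were read from 7 lists with 48 genes, of which 37 could be tested, and 17 of these rose and 10 fell. That is 73.0% called, beside 64.4% of all tested genes (32.6% higher and 31.8% lower). The same shares are the background for the counts per list below, and no list was tested as a set. Log2 fold changes below are from the edgeR fit on counts unless another test is named. They can differ from the change in the FPKM means printed beside them. The number called lower depended on the scaling and the libraries: it was 5 with upper-quartile factors, 5 with limma on FPKM at either pseudocount, 4 on FPKM without the filter, and 6 without DA replicate 2 or without DA replicate 3.

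In the list of ornithine and arginine genes, 5 of 7 tested genes rose and 2 fell, beside 64.4% of all tested genes called. The 5 include the ornithine aminotransferase gene Oat (log2 fold change 0.40), named after its values were seen. Arg1, the cytosolic arginase that makes ornithine, rose from 0.757 ± 0.114 to 9.07 ± 1.58 FPKM (SD, n = 3; log2 fold change 3.48), and the mitochondrial arginase gene Arg2 from 2.33 ± 0.489 to 13.6 ± 1.17 FPKM (SD, n = 3; 2.46). Ass1, argininosuccinate synthase, rose from 129.1 ± 4.35 to 283.7 ± 38.5 FPKM (SD, n = 3; 1.05). The cationic amino acid transporter gene Slc7a2 fell (log2 fold change -1.58). Slc7a1, another arginine transporter gene, fell slightly (-0.25), and its call was lost without Pam3CSK4 replicate 1 (-0.22) and without DA replicate 2 (-0.15). Both arginase genes and Odc1, whose substrate they supply, were thus higher with DA, although Arg1 lay below 1 FPKM in every Pam3CSK4 library.

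Of the members' own relatives, Paox, the oxidase of acetylated polyamines, rose from 2.01 ± 0.293 to 3.34 ± 0.0252 FPKM (SD, n = 3; log2 fold change 0.65, edgeR adjusted p = 0.000567). Azin2, a relative of Azin1, rose from 2.05 ± 0.231 to 2.82 ± 0.120 FPKM (SD, n = 3; 0.37), a call lost without Pam3CSK4 replicate 1 (0.28) and with DESeq2 (0.36, adjusted p = 0.0694). Of the other 5 genes on that list only Amd2 could be tested. Of the products of spermine oxidation, hydrogen peroxide is a substrate of catalase, and its gene Cat rose from 66.4 ± 2.75 to 222.7 ± 14.3 FPKM (SD, n = 3; log2 fold change 1.66, edgeR adjusted p = 2.24e-11). Aldh9a1, an aminoaldehyde dehydrogenase gene, rose 1.46-fold. All 3 tested genes of that list rose, beside 32.6% of all tested genes.

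The methionine cycle and the salvage of methylthioadenosine, the by-product of both synthases, showed 2 of 10 tested genes higher and 5 lower. Among all tested genes 32.6% were called higher and 31.8% lower. Adi1, an enzyme of the salvage route, rose from 1.86 ± 0.0954 to 4.92 ± 0.282 FPKM (SD, n = 3; log2 fold change 1.31), and Mat2b, a regulatory subunit of methionine adenosyltransferase, rose 1.35-fold. Enoph1, which acts before Adi1 in salvage, fell (-0.62), and so did Ahcy, the S-adenosylhomocysteine hydrolase gene (-0.57). The salvage genes thus did not share a direction.

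Of 4 tested genes of polyamine transport, only Slc3a2 rose (log2 fold change 0.59), a heavy chain shared by many amino acid transporters. The lysosomal and endosomal polyamine transporter genes Atp13a2 (-0.05, adjusted p = 0.476) and Atp13a3 (-0.07, adjusted p = 0.549), named after their values were seen, were not called by edgeR. In hypusine formation, for which spermidine is the donor, Eif5a fell from 540.0 ± 20.1 to 476.4 ± 19.99 FPKM (SD, n = 3). Its log2 fold change was -0.28 on counts in the main edgeR fit. The value was -0.17 with upper-quartile factors and -0.18 with limma on log2(FPKM + 1). The hypusine enzymes Dhps (-0.10) and Dohh (-0.06), also named after their values were seen, did not pass.

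In the MYC network, 4 of 6 tested genes rose and 2 fell, beside 64.4% of all tested genes called. Odc1 is a textbook target of MYC, and Myc itself, named after its values were seen, had an FPKM of 11.3, 12.9 and 12.8 with Pam3CSK4 and 16.7, 16.03 and 16.6 with DA (log2 fold change 0.33, edgeR adjusted p = 0.000899). The groups did not overlap. Of the genes of MYC's antagonists, Mxi1 rose 3.67-fold and Mnt 1.85-fold, but not every MAX partner rose. Mga, a MAX partner, fell (-0.42), and Max, the common partner, fell by 0.15 on the log2 scale, a call lost without Pam3CSK4 replicate 3 (-0.13), DA replicate 2 (-0.14) or DA replicate 3 (-0.15), with upper-quartile factors (-0.04) and on FPKM (-0.06).

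**Figure D5:**
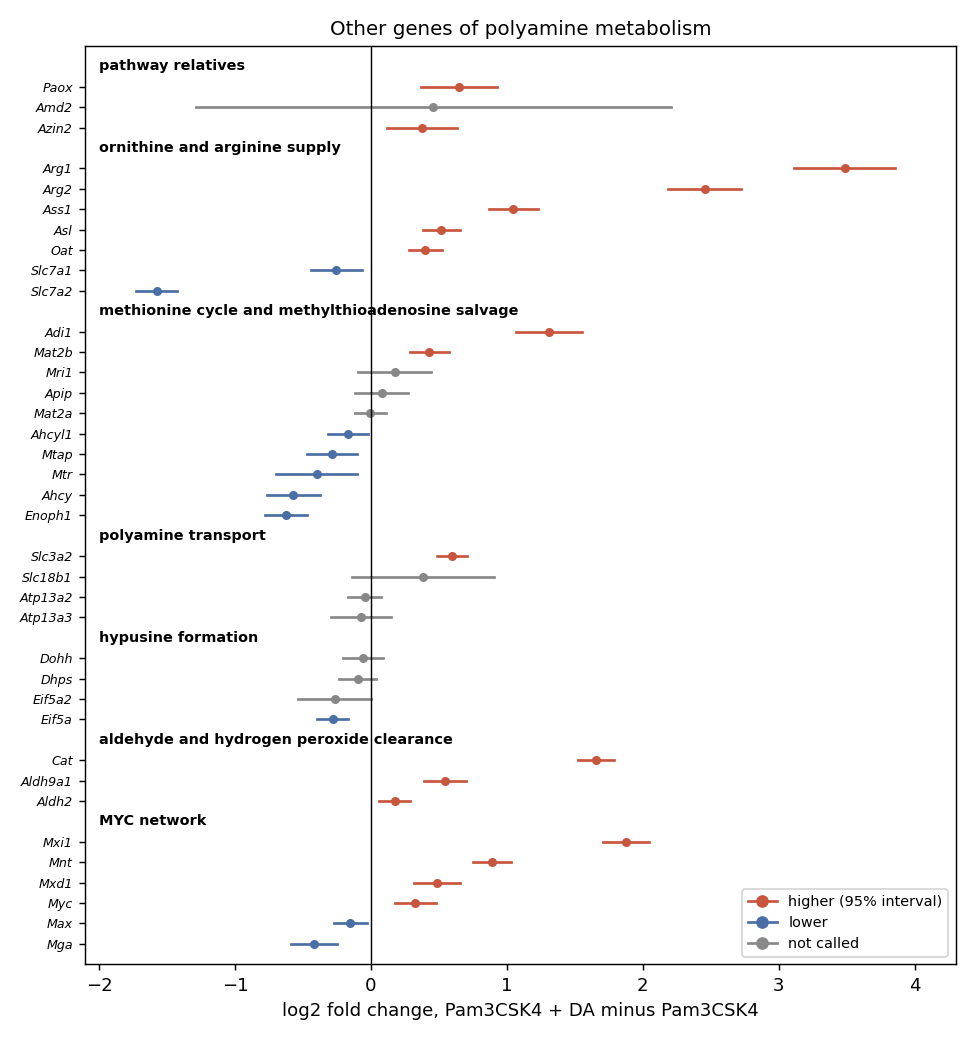
Log2 fold change (horizontal axis, Pam3CSK4 plus DA minus Pam3CSK4) and 95% interval of the 37 tested genes in 7 lists around the pathway; red is called higher, blue lower and grey not called. Arg1 (3.48), Arg2 (2.46), Mxi1 (1.88) and Cat (1.66) lie farthest to the right and Slc7a2 (-1.58) farthest to the left.

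The genes most like Odc1, Smox and Sat1 were found by the Euclidean distance between log2(CPM + 1) profiles over the 6 libraries, each centred on its mean. The search covered 8662 genes whose average reached 5 CPM, after predicted and unnamed genes were left out by the form of their symbols. That filter also left out any symbol that begins with C and a digit, so named genes of that form were not searched. For Odc1 these were Preb (distance 0.054), Inpp5d (0.054) and Slc35b1 (0.062), with log2 fold changes of 0.61, 0.61 and 0.63. For Smox they were Lyrm5 (0.054), Taldo1 (0.075) and Mmab (0.085), with 1.78, 1.68 and 1.89. For Sat1 they were Dazap1 (0.036), Gsdmd (0.046) and Plekha2 (0.046). Since each profile holds a single contrast, likeness here means mainly a similar size of change.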

How the data were processed

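Sample titles gave the group and replicate number of each library, and the series title spells out DA as dopamine. Where the source field of a DA library writes another final digit in the ligand's name, the title was used. The authors deposited, for each library and gene, expected counts (estimated counts, not normalized, per the file headers) and FPKM values (scaled by the authors for transcript length and library size). The deposited transcript length of each gene stood beside them. Per the submitters' processing notes, the build was GRCm38.p5 and Bowtie2 2.2.5 was used. For the quantifier, a name is not given in the sources used here. Genes that a library does not list were taken as 0, and the lowest FPKM listed was 0.01.

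Expected counts were rounded, filterByExpr removed 5561 genes, and the remaining 12390 were fitted with edgeR 4.0.16 (TMM factors, quasi-likelihood test, group only, Benjamini-Hochberg over all 12390). The SE is the log2 fold change divided by the square root of F. The fit was tested on simulated data with far fewer changed genes than here, raised and lowered in equal number. That test therefore does not cover the choice of scaling. Alternatives used limma 3.58.1 on log2(FPKM + 1) or log2(FPKM + 0.1), with genes of FPKM at least 1 in at least 3 libraries or unfiltered, and DESeq2 1.42.0. Intervals assume the fitted model.

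The members and lists were chosen with earlier results of these data known. Named beside the members were, per list, called genes changed at least 2-fold and up to 2 per direction with the smallest adjusted p. Gene positions are from GENCODE M21 (GRCm38).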

Additional observations from a re-analysis of the deposited data

How the results depend on the processing

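The calls of Smox, Odc1, Oaz1, Oaz2 (higher) and Sms (lower) held under all 17 alternatives run, with log2 fold changes of 1.66 to 1.83, 0.58 to 0.74, 0.37 to 0.53, 0.50 to 0.64 and -1.003 to -0.79. Upper-quartile factors moved the median of all tested genes from 0.02 to 0.135 and turned the uncalled values of Azin1 (0.088), Amd1 (0.064), Sat1 (0.040) and Srm (0.0101) above 0, still uncalled; higher and lower calls over all genes were then 5055 and 3138, against 4043 and 3938, and 4229 and 2858 with limma on log2(FPKM + 1). limma on FPKM, with a pseudocount of 1, of 0.1 or of 1 without the filter, also gave positive uncalled values for Azin1 (0.061, 0.063 and 0.061), Amd1 (0.037, 0.039 and 0.037) and Sat1 (0.0147, 0.0148 and 0.0147). With a library left out, Azin1 ranged from -0.067 to 0.026, Amd1 from -0.11 to 0.015 and Srm from -0.16 to -0.057, members called lower from 1 to 2, and neighbouring genes called lower from 6 to 10. That last count was 10 in the main fit, 5 with upper-quartile factors, 5 with limma at either pseudocount and 4 without the FPKM filter; the cause was not tested. Of the 19 neighbouring genes named by the rule, 15 kept direction and call throughout; Mga lost its call on unfiltered FPKM, and Slc7a1 with upper-quartile factors and on FPKM. The ratios from counts in place of FPKM moved by less than 1 SD, also with Oaz1-ps added to Oaz1, where Oaz2 to Oaz1 no longer overlapped between the groups.

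Same-numbered libraries of the 2 groups had correlations of 0.445, 0.0868 and 0.122 between their deviations from the group means. Those of differently numbered libraries ran from -0.410 to 0.265. These values do not settle whether the numbers pair libraries. The main fit was left unpaired because the design names 2 groups in triplicate and no pairing. With the replicate number as a block the members' calls were again 4 higher and 1 lower, neighbouring genes 17 and 10, and all genes 4223 higher and 4111 lower. With 3 libraries a group, changes inside the intervals given cannot be resolved.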
